A study of Mus musculus with 6 samples.

Results

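The respiratory chain genes described here are the 105 of 27998 genes in the tables whose symbols name a nuclear subunit or assembly factor of complexes I to IV or of ATP synthase (92 nuclear genes, symbols beginning with Nduf, Cox4 to Cox8, Uqcr or Atp5, and Sdha to Sdhd) or begin with mt- (13 mitochondrial genes). Membership follows from the symbol alone, and the set itself was chosen with earlier results of these data known. The nuclear genes comprised 38 complex I subunits, 7 complex I assembly factors (Ndufaf), 4 complex II genes, 8 complex III genes, 18 complex IV genes and 17 ATP synthase genes, grouped by symbol, although Ndufa4 is now known as a complex IV subunit. All 105 could be placed on GRCm38 (mm10) by their identifiers, and the 13 mt- genes all lay on the mitochondrial chromosome.

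They were followed in invariant natural killer T (iNKT) cells, T cells with a restricted receptor that recognizes lipids presented by CD1d, from the liver, spleen and lymph node of wild-type C57BL/6 mice 5 weeks of age. Each organ had 2 libraries (n = 2 per organ, 6 in all) of sorted cells. CD8 and B220 bearing cells had been removed, and cells binding TCR-β antibody and CD1d tetramer were then collected. All groups shared the strain, genotype, age and sort, and no group was treated. The study's methods call the 2 libraries of an organ biological repeats. The number and sex of the mice behind each library are not in the labels, and p-values measure the spread between these libraries.

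Electrons from NADH enter the respiratory chain at complex I and those from succinate at complex II, pass through complex III and cytochrome c, and reduce oxygen at complex IV. Complexes I, III and IV pump protons, and ATP synthase uses the resulting gradient. Complex II is encoded in the nucleus alone, while the other complexes are assembled from nuclear subunits and from subunits encoded by mitochondrial DNA, which is transcribed as long polycistronic RNAs that are cut into single messages. In T cells, oxidative phosphorylation is known to rise and fall with activation, quiescence and memory. iNKT cells are grouped by effector program into iNKT1, iNKT2 and iNKT17 cells.

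After the limits on genes and mitochondrial reads per cell, 16532 of 16587 barcodes remained (2638 to 2861 per library). The libraries held 4758138 to 10870838 unique molecular identifiers (UMIs, 1 per captured RNA molecule). Liver cells were deeper, with a median of 3592 and 2880 UMIs per cell in the liver libraries against 1470 to 1730.5 in the other 4, and pairs of libraries shared 6 to 20 barcodes. T cell markers (Cd3d, Cd3e, Cd3g and Zbtb16) were present in every library, at a summed 2875 to 4245 CPM (counts per 1000000 UMIs of the library), whereas hepatocyte markers summed to 1.2 to 2.93 CPM, with Alb at 2, 1, 0, 0, 0 and 0 UMIs. Haemoglobin and Alas2 RNA summed to 3932 and 5253 UMIs in liver and to at most 1 elsewhere. Xist had 5401 to 10404 UMIs in each liver and spleen library and 0 in both lymph node libraries, which held RNA of 4 Y-chromosome genes instead, so that in every comparison with lymph node the organ and the sex of the source mice cannot be told apart. The immediate early list (Fos, Jun, Junb, Dusp1, Ier2, Egr1 and Nr4a1) stood at 4858 and 5518 CPM in lymph node, at 520 and 531 in liver and at 1013 and 851 in spleen. Markers of iNKT17 cells summed to 157 and 197 CPM in the liver, 94.3 and 73.7 in the spleen and 787 and 901 in the lymph node. The summed markers of iNKT1 cells were lowest in the lymph node, where those of iNKT17 cells were highest. The iNKT1 markers summed to 3517 and 3994 CPM in the liver, 2978 and 2800.0 in the spleen and 1202 and 1221 in the lymph node. Of the iNKT1 list Ifng alone was higher in lymph node (90.3 and 81.1 CPM) than in spleen (52.1 and 39.7). It stood at 68.4 and 107.6 CPM in liver. The nucleus-retained RNAs Malat1 and Neat1 summed to 32590.0 and 31610.0 CPM in lymph node and to 24470.0 to 27500.0 in the other 4 libraries. The part of these differences in the results below was not tested.

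The nuclear and mitochondrial sets took different orders among the organs. The 92 nuclear genes held 2.42% and 2.64% of all UMIs in liver, 2.92% and 3.04% in spleen, compared with 2.67% and 2.69% in lymph node. The liver mean was 2.53% ± 0.156, the spleen mean 2.98% ± 0.0833 and the lymph node mean 2.68% ± 0.0172 (SD, n = 2). The spleen libraries were thus the highest and the liver libraries the lowest, with no overlap between organs, although the liver mean was 0.945 times that of lymph node. The 13 mitochondrial genes held 2.79% and 2.85% of UMIs in the liver, 4.27% and 4.87% in the spleen and 4.65% and 5.26% in the lymph node. Liver stood apart at a mean of 2.82% ± 0.0432, which was 0.617 times the spleen mean (4.57% ± 0.418) and 0.569 times the lymph node mean (4.96% ± 0.434), and the spleen and lymph node libraries overlapped. No p was computed for these sums, which are descriptions, and in sums over a library fewer cells of a type and less RNA per cell cannot be told apart.

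**Figure D1:**
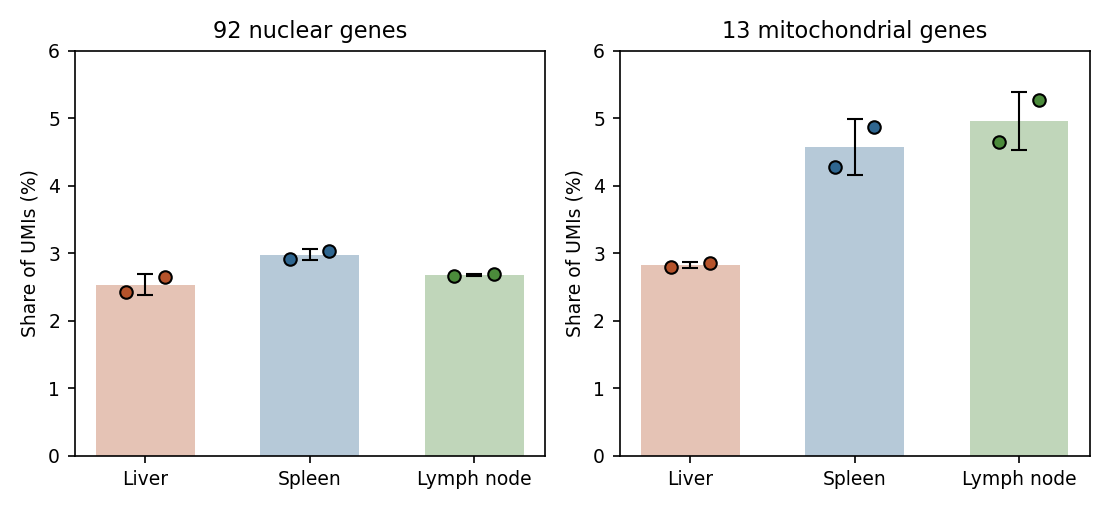
Share of all UMIs (%) in the 92 nuclear and the 13 mitochondrial respiratory chain genes by organ. Points are libraries, bars are means and whiskers are the SD of n = 2 libraries. The mitochondrial share is 2.79% and 2.85% in liver and 4.27% to 5.26% in the other 4 libraries, whereas the nuclear shares lie between 2.42% and 3.04%.

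The order of the nuclear set depended on the denominator. Ribosomal protein and haemoglobin genes took 34.4% and 32.1% of UMIs in the liver, 28.5% and 28% in the spleen and 27.2% and 23.4% in the lymph node. With these left out of the total, the nuclear share was 3.79% ± 0.141 in the liver, 4.15% ± 0.0932 in the spleen and 3.59% ± 0.109 in the lymph node, so that liver moved above lymph node while spleen remained highest. The mitochondrial share on that scale was 4.23% in the liver, 6.37% in the spleen and 6.63% in the lymph node. Mitochondrial UMIs per nuclear respiratory chain UMI were 1.15 and 1.08 in the liver, 1.46 and 1.60 in the spleen and 1.74 and 1.96 in the lymph node, a ratio that does not depend on the total.

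In absolute UMIs a liver cell nevertheless gave more nuclear respiratory chain RNA, with a mean of 93.9 and 83.2 UMIs per cell, against 58.1 and 57.3 in spleen and 51.8 and 45.0 in that of lymph node. Mitochondrial UMIs per cell overlapped between organs, at 108 and 89.8 in the liver, 85.0 and 91.8 in the spleen and 90.4 and 88.0 in the lymph node. These numbers carry the depth of the libraries. To remove it, each cell was thinned at random to 1000 UMIs, which left out 0, 9, 144, 169, 265 and 488 shallower cells in the order liver, spleen and lymph node. The median cell then had 23 and 26 nuclear UMIs in the liver, 28 and 30 in the spleen and 26 and 26 in the lymph node, from 19 to 23 different genes. It had 27 and 28 mitochondrial UMIs in the liver, 41 and 47 in the spleen and 45 and 52 in the lymph node. Variation between cells of a library was 1.3 to 1.44 times the binomial variance for the nuclear set and 3.06 to 4.26 times for the mitochondrial set. Across the thinned cells of a library, which were not matched for cell type, nuclear and mitochondrial UMIs had a Spearman coefficient of -0.059 to -0.115. Both are parts of the same 1000 UMIs, which by itself makes such a coefficient slightly negative.

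**Figure D2:**
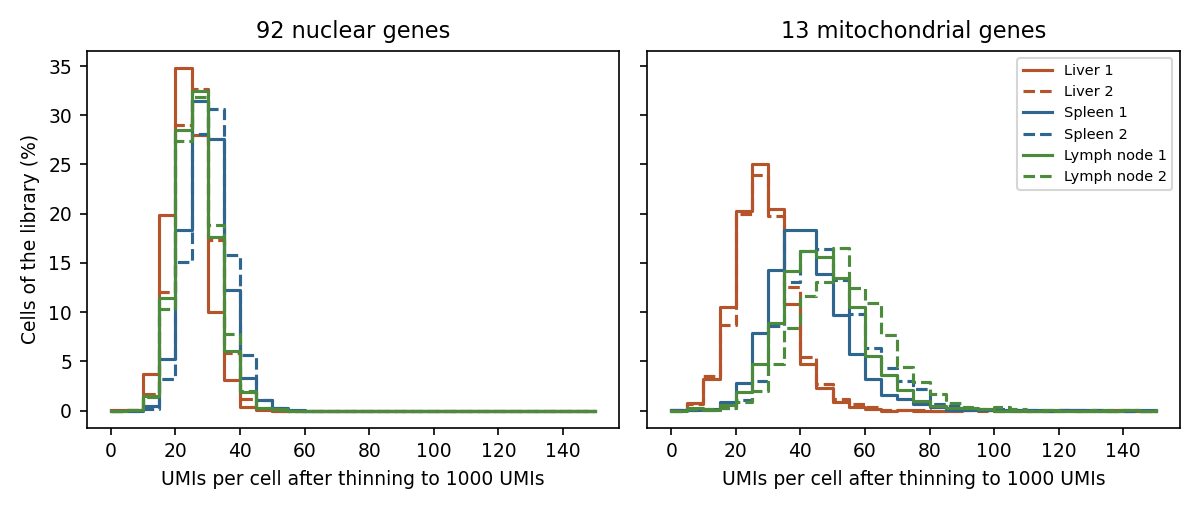
Distribution over cells of nuclear (left) and mitochondrial (right) respiratory chain UMIs after each cell was thinned to 1000 UMIs, in bins of 5 UMIs, with the share of the library's cells on the vertical axis and 1 line per library. The nuclear distributions overlap, with medians from 23 to 30 UMIs, whereas the mitochondrial medians are 27 and 28 in liver and 41 to 52 elsewhere.

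Depth also varied among the cells of a library, and the nuclear share rose with it in each. In cells with 1200 to 2500 UMIs it was 2.26% and 2.46% in the liver, 2.89% and 3.00% in the spleen and 2.58% and 2.63% in the lymph node. In cells with over 2500 UMIs it was 2.44% and 2.68%, 3.01% and 3.13%, and 2.90% and 3.04%, where spleen and lymph node overlapped. Within the lower window the organs stood in the order of the whole libraries without overlap. The mitochondrial share there was 2.89% and 2.92% in the liver, 4.14% and 4.86% in the spleen and 4.66% and 5.44% in the lymph node, so liver was the lowest in this window as well.

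Each gene was then tested between organs with edgeR's quasi-likelihood test on UMIs summed per library, over the 10251 genes that passed the filter on low counts, with calls made where the Benjamini-Hochberg adjusted p fell below 0.05. Of the 92 nuclear genes 85 passed that filter, and all 13 mitochondrial genes did. Levels are given as CPM after TMM scaling and without ribosomal protein genes. Since the 3′ counts are not per length, levels are compared between organs and not between genes. Liver entered 2 of the comparisons and so did each other organ, so the comparisons share libraries and their values are given side by side only.

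Between liver and spleen, the nuclear genes that were called were nearly all lower in liver. Of the 85 tested, 38 were called lower and 2 higher, or 47.1% called, where 25.9% of all tested genes were called (13.1% lower and 12.8% higher). The median log2 fold change was -0.30 over the nuclear genes and 0.02 over all genes, 74 of 85 nuclear values were negative, and no member differed 2-fold. The count rested on 2 libraries. It was 4 without liver replicate 1 and 9 without spleen replicate 2, where 13.1% of all genes were called in each case, and 28 to 37 without any other library. With DESeq2, 32 genes were called lower.

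Complex I held most of these calls. All 37 of its tested subunits had a negative log2 fold change (median -0.35), and 24 were called lower in liver. Ndufa4 (-0.42), counted here by its symbol although a complex IV subunit, was among the 24. That was 64.9% called, where 25.9% of all tested genes were called. Ndufa12, an accessory subunit, stood at 225 and 260 CPM in the liver, 358 and 371 in the spleen and 342 and 327 in the lymph node. Both liver libraries were below the other 4, and Ndufa12 was lower in liver than in spleen (log2 fold change -0.59 ± 0.11 SE, edgeR adjusted p = 0.00029) and remained called under all 16 alternatives. Ndufs3, a core subunit of the hydrophilic arm, stood at 142 and 167 in the liver, 216 and 218 in the spleen and 220 and 218 in the lymph node. Liver was again below all other libraries (-0.49 ± 0.12 against spleen, adjusted p = 0.0019), but the call was lost without liver replicate 1. Ndufc1, a small accessory subunit, had 199 and 260 in liver against 304 and 386 in spleen (-0.59, adjusted p = 0.0015), and lost its call without liver replicate 1 or spleen replicate 2, as did Ndufa1 (-0.47), which lies on the X chromosome, and Ndufb2 (-0.47). The core subunits Ndufs7 (-0.40) and Ndufs8 (-0.39) were lower too, whereas the core subunits Ndufv1 (-0.12) and Ndufv2 (-0.13) were among the 13 subunits that were not called.

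Of the 7 complex I assembly factors, 2 were lower in liver (28.6%, near the 25.9% of all genes). Ndufaf6 had the largest fold change among the called nuclear genes, at 11.5 and 14.1 CPM in the liver, 22.4 and 25.1 in the spleen and 17.96 and 20.1 in the lymph node. It was lower in liver (log2 fold change -0.89 ± 0.21, adjusted p = 0.0017) and was called under all 16 alternatives, although it rested on 66 to 87 UMIs per library. Ndufaf1 stood at 22.9 and 19.9 in the liver, 34.1 and 32.6 in the spleen and 30.2 and 32.3 in the lymph node (-0.63 ± 0.17, adjusted p = 0.0061), and was not called without liver replicate 2.

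Of 8 complex III genes 5 were lower in liver than in spleen, namely Uqcrb (-0.58), Uqcr11 (-0.48), Uqcr10 (-0.47), Uqcrc1 (-0.39) and Uqcrq (-0.36). That was 62.5% called, where 25.9% of all tested genes were called. Uqcrb, a small subunit, varied between the liver libraries (459 and 724 CPM, against 863 and 906 in spleen), and Uqcrb, Uqcr11 and Uqcr10 each lost the call without liver replicate 1 or spleen replicate 2, and Uqcrb also with DESeq2. Uqcrh, with the most UMIs of the group, gave 1256 and 1235 in liver and 1263 and 1291 in spleen (-0.04, adjusted p = 0.86). In complex II, which oxidizes succinate in the tricarboxylic acid cycle, Sdhb was lower in liver (-0.40, edgeR adjusted p = 0.0097) and Sdhc higher. These were 2 of its 4 genes (50%, against the same 25.9%). Sdhc, a membrane anchor, stood at 79.4 and 88.7 in the liver, 69.0 and 62.2 in the spleen and 69.1 and 60.4 in the lymph node (0.35 ± 0.13, adjusted p = 0.044), a call that was lost under 8 of 16 alternatives.

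Complex IV, cytochrome c oxidase, had 12 tested genes by symbol, without Ndufa4. Cox6c alone was called (-0.34, edgeR adjusted p = 0.044), or 8.33%, below the 25.9% of all tested genes. Cox4i1, the complex IV gene with the most UMIs, gave 1450.0 and 1464 CPM in liver and 1592 and 1591 in spleen (-0.13, edgeR adjusted p = 0.47). Of 17 ATP synthase genes 5 were lower in liver (Atp5l -0.44, Atp5j -0.40, Atp5k -0.38, Atp5g1 -0.35 and Atp5g3 -0.33) and Atp5d was higher. This made 35.3% called, where 25.9% of all tested genes were called. Atp5d, the delta subunit of the central stalk, stood at 606 and 583 in the liver and 494 and 425 in the spleen (0.37 ± 0.12, edgeR adjusted p = 0.021). Lymph node had 476 and 404. The Atp5d call against spleen was lost without liver replicate 1, without spleen replicate 2 and in cells of 1200 to 2500 UMIs. Differences between the complexes were not tested.

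**Figure D3:**
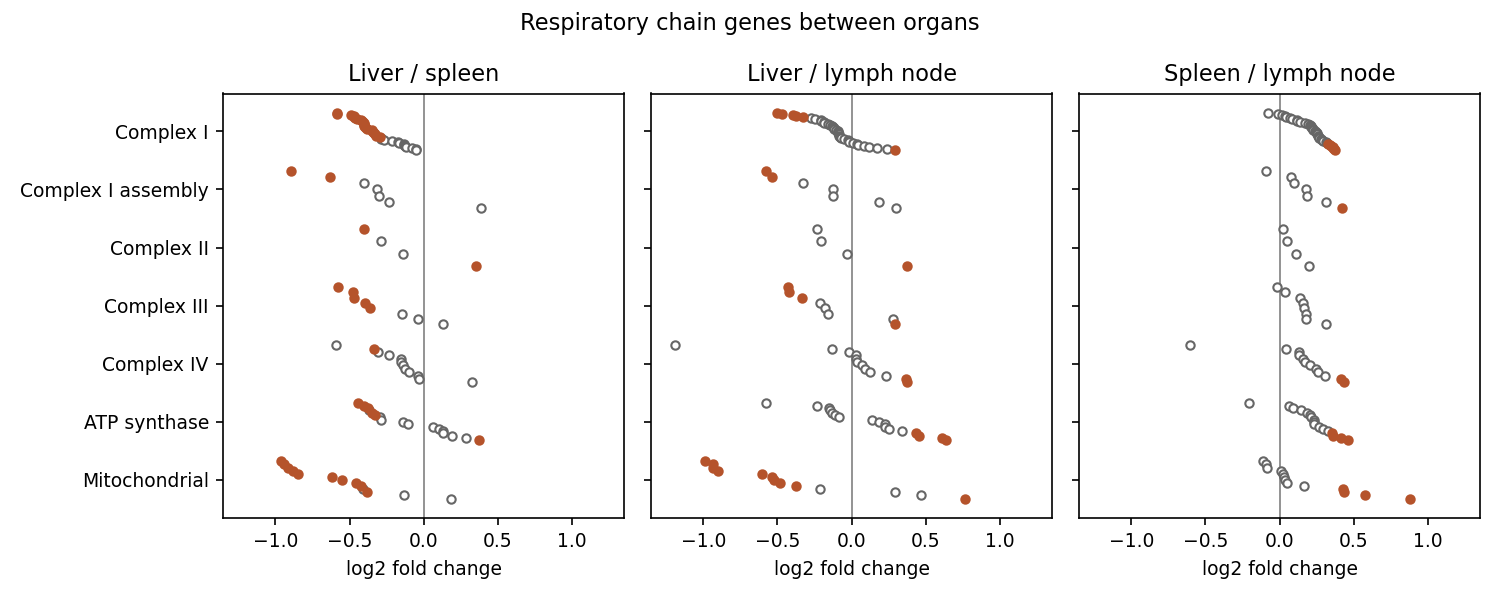
Log2 fold change of each tested respiratory chain gene between organs, in 1 panel per comparison, each value being the first organ relative to the other. Genes are grouped into complexes by symbol, with Ndufa4 under complex I. Filled points are genes called at an adjusted p below 0.05 (edgeR) and open points are not called. Against spleen, all 37 complex I subunits lie left of 0 and 24 are filled, and no called gene reaches a log2 fold change of 1 in size in any panel.

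Between liver and lymph node, the nuclear genes split. Of 85 tested, 9 were higher and 10 lower in liver (22.4% called, where 37.5% of all tested genes were called, 18% higher and 19.6% lower), with a median log2 fold change of -0.08. The 10 lower genes were Ndufaf6, Ndufaf1, Ndufs3, Ndufa12, Uqcr10, Uqcrb, Ndufc2, Ndufc1, Uqcr11 and Ndufa7, from -0.58 to -0.33, all subunits of complexes I and III or assembly factors of complex I. The 9 higher genes were Atp5g2, Atp5h, Atp5e, Atp5d, Sdhc, Cox7a2l, Cox8a, Ndufs6 and Uqcrc2, from 0.63 to 0.29. Atp5h, subunit d of the peripheral stalk, stood at 1050.5 and 1132 CPM in the liver, 977 and 931 in the spleen and 777 and 655 in the lymph node. The organs did not overlap for Atp5h (0.61 ± 0.12 over lymph node, adjusted p = 0.00015). Atp5h, Atp5g2, Ndufa12 (-0.47, adjusted p = 0.0015) and Ndufs3 (-0.50, adjusted p = 0.00074) were the 4 of these 19 genes called under all 16 alternatives. The higher calls fell to 2 without lymph node replicate 2, and the lower calls to 3 without lymph node replicate 2 or liver replicate 1 and to 5 without lymph node replicate 1, where 22.8%, 26.3% and 27.3% of all genes were called.

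In the comparison of spleen with lymph node, spleen was higher in 14 of 85 nuclear genes (16.5%) and lower in 0. Over all genes 18.2% were called, 7.89% higher and 10.3% lower. At an unadjusted edgeR p below 0.05, 32 nuclear genes were higher and 0 lower, and DESeq2 called 9 higher and 0 lower. The median log2 fold change was 0.21, and 79 of 85 values were positive. Cox5b, a zinc-binding complex IV subunit, stood at 734 and 811 CPM in spleen, 585 and 560.3 in lymph node and 594 and 657 in liver (0.43 ± 0.12, adjusted p = 0.0080). Atp5g3 (0.46), Ndufaf3 (0.42), Cox8a (0.41), Atp5h (0.41) and Ndufv3 (0.37) were also higher in spleen. None of the calls of the 12 genes that were followed through the alternatives held in all 16, and the count of 14 fell to 0 without spleen replicate 2 or lymph node replicate 2, to 4 without spleen replicate 1 and to 6 without lymph node replicate 1. The share of all genes called was then 12.7%, 9.61%, 14.2% and 12.0%, in the same order of omissions.

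The 3 genes Atp5g1, Atp5g2 and Atp5g3 encode the same mature c subunit, the ring that turns in ATP synthase, with different import sequences. Atp5g2 stood at 771 and 764 CPM in the liver, 641 and 619 in the spleen and 549 and 439.5 in the lymph node, falling without overlap in that order (0.63 ± 0.12 for liver over lymph node, adjusted p = 8.7e-05). Atp5g1 was lower in liver than in spleen (479 and 587 against 605 and 749), as was Atp5g3 (364 and 405 against 452 and 512). Atp5g2 thereby made up 47.8% and 43.5% of the UMIs of the 3 genes in the liver, 37.7% and 32.9% in the spleen and 36.4% and 33.0% in the lymph node. The calls of Atp5g1 and Atp5g3 against spleen were lost under 7 and 8 of 16 alternatives, DESeq2 and the omission of liver replicate 1 or spleen replicate 2 among them.

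The other isoforms followed the ubiquitous form in all organs. Cox4i1 had 41892 UMIs and Cox4i2, induced by low oxygen in other tissues, 2. Cox6a1 had 21572 and the muscle form Cox6a2 8, Cox7a2 18771 and the muscle form Cox7a1 64, Cox6b1 27610 and the testis form Cox6b2 36, and Cox8a 37857 and Cox8c 1. Cox8b, Cox7b2 and Ndufa4l2 had 0 UMIs, which allows up to 0.0746 CPM over the 40203530 UMIs of all libraries. Apart from Cox7a1 these minor forms were the 7 nuclear genes that did not pass the filter. Cox7a2l, a gene related to Cox7a2, was higher in liver than in lymph node (830.4 and 706 against 656 and 534 CPM, 0.37, adjusted p = 0.022), a call lost without liver replicate 1 or lymph node replicate 2 and in cells of 1200 to 2500 UMIs.

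Promoters were searched for known letters, since NRF1, the ETS factor GABP and YY1 are known regulators of nuclear respiratory genes. Of the 92 nuclear genes 76 matched a promoter in the RefSeq table (GRCm38.p6, 250 bases before to 50 bases after the start, 82 promoters in all). The letters GCGCATGC (NRF1), CCGGAAGT (ETS) and AAGATGGC (YY1) were searched on both strands, and GCGCATGC can overlap its own reverse complement. They occurred in 14.6%, 6.10% and 14.6% of these promoters, against 2.71%, 3.89% and 2.75% of the 32851 promoters in the table, and 34.1% held at least 1 of them against 8.83%. Of the matched genes called lower in liver than in spleen 13 of 34 had one, and of those tested and not lower 14 of 39, or 38.2% and 35.9%. The 5 promoters below, chosen after their values were seen and because each holds searched letters, are of genes lower in liver (Ndufs3, Ndufc1 and Uqcr11) and higher in liver than in lymph node (Atp5g2 and Atp5h), in 5′ to 3′ direction, with the searched letters in capitals on either strand. A match is a description and not a binding site.
Ndufs3 promoter: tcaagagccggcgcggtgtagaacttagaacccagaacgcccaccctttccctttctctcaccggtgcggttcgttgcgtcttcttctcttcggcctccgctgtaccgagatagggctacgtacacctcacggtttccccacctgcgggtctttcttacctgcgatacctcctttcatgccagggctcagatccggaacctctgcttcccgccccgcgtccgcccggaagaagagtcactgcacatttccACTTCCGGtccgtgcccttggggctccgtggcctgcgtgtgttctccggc
Ndufc1 promoter: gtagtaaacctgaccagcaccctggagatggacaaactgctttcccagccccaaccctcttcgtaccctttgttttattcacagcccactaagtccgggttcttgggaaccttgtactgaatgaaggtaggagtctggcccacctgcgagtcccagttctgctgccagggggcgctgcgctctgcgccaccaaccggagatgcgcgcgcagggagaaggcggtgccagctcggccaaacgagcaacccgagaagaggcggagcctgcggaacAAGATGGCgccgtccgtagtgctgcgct
Uqcr11 promoter: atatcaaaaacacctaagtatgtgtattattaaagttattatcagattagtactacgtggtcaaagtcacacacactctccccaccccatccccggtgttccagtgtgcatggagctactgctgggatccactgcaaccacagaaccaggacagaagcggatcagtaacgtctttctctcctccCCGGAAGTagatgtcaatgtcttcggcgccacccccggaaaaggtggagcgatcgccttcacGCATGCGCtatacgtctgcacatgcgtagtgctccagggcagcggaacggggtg
Atp5g2 promoter: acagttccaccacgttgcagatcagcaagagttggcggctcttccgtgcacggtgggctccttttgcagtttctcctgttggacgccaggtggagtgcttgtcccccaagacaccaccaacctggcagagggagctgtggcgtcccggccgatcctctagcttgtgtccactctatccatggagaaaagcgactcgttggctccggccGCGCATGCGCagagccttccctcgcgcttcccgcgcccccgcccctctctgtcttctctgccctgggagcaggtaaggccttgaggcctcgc
Atp5h promoter: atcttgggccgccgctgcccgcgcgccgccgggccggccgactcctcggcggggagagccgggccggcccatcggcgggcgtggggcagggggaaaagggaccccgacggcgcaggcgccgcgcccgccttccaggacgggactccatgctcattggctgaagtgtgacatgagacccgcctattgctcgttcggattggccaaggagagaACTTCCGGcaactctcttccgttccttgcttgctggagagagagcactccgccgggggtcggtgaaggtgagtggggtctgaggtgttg

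These windows lie at chr2:90904672-90904971 (minus strand) for Ndufs3, chr3:51408906-51409205 (minus strand) for Ndufc1, chr10:80406772-80407071 (minus strand) for Uqcr11, chr15:102670998-102671297 (minus strand) for Atp5g2 and chr11:115419870-115420169 (minus strand) for Atp5h. Counted from the first base shown, with the start of transcription at base 251, the ETS letters begin at base 251 in Ndufs3, 185 in Uqcr11 and 212 in Atp5h, the YY1 letters at base 273 in Ndufc1, and the NRF1 letters at base 247 in Uqcr11 and at bases 209 and 211 in Atp5g2. No searched letters occurred in the promoter of Ndufa12. Among these 5 chosen promoters the ETS and NRF1 letters occurred in promoters of genes that were lower and of genes that were higher in liver.

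Most mitochondrial genes were lower in liver than in either other organ. Between liver and spleen 10 of 13 were lower in liver (76.9%, where 25.9% of all tested genes were called) and 0 higher, with 0 higher also at an unadjusted edgeR p below 0.05 and with DESeq2, and the median log2 fold change was -0.55. Between liver and lymph node 9 were lower and 1 higher (76.9%, against 37.5% of all genes), with a median of -0.52. In spleen 4 were higher than in lymph node (30.8%, against 18.2% of all genes) and 0 lower, again with 0 at an unadjusted edgeR p below 0.05 and with DESeq2, and the median was 0.04. Without spleen replicate 2 the lower calls of liver against spleen numbered 5 and the higher calls of spleen against lymph node 1, and the latter numbered 2 without either lymph node library. Of all genes, 13.1% and 12.7% were called in these comparisons without spleen replicate 2, and 12.0% and 9.61% in the latter without lymph node replicate 1 and 2, so that the remaining 1 or 2 of 13 calls of spleen over lymph node lay near that share.

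The 13 genes formed a graded series, from mt-Nd4l (log2 fold change -0.96 against spleen) or mt-Atp6 (-0.99 against lymph node) at one end to mt-Nd3 at the other. mt-Atp6, subunit a of ATP synthase (chrM:7927-8607), stood at 9556 and 10137 CPM in the liver, 16726 and 19543 in the spleen and 18460.2 and 20704 in the lymph node. Liver was below all other libraries (log2 fold change -0.88 ± 0.14 against spleen, adjusted p = 1.7e-05, and -0.99 ± 0.14 against lymph node, adjusted p = 6.6e-07). mt-Nd1, a core subunit of complex I (chrM:2751-3707), stood at 3059.8 and 3208 in the liver, 5377 and 6640.3 in the spleen and 5626 and 6072 in the lymph node (-0.94 against spleen and -0.90 against lymph node). mt-Cytb, the catalytic core of complex III, had log2 fold changes of -0.85 and -0.93, and mt-Nd4l, another complex I subunit, of -0.96 and -0.93. These 4 genes were called in both comparisons under all 16 alternatives.

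The cytochrome c oxidase genes moved less, with mt-Co1 at -0.61 and -0.60, mt-Co3 at -0.45 and -0.54 and mt-Co2 at -0.42 and -0.37 against spleen and lymph node, all called. mt-Nd4 (-0.55 and -0.52) was called in both, and mt-Nd5 only in liver against spleen (-0.38, adjusted p = 0.012, and -0.22 against lymph node, adjusted p = 0.13). mt-Atp8, whose reading frame overlaps mt-Atp6, had -0.91 against spleen and -0.48 against lymph node, and was higher in spleen than in lymph node (0.43, adjusted p = 0.014). Against spleen, mt-Co1, mt-Co2, mt-Co3, mt-Nd4 and mt-Nd5 lost their calls without spleen replicate 2, mt-Co2 and mt-Nd5 also without liver replicate 1, and mt-Co2 without spleen replicate 1. Against lymph node, mt-Atp8 and mt-Co2 lost theirs without liver replicate 1 or lymph node replicate 2, and the mt-Atp8 call of spleen over lymph node was lost without spleen replicate 2 or lymph node replicate 1 and with DESeq2.

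mt-Nd2, mt-Nd3 and mt-Nd6, all complex I subunits, were not called lower in liver in either comparison. mt-Nd3 (chrM:9459-9806) stood at 482 and 497 CPM in the liver, 415 and 445 in the spleen and 291 and 285 in the lymph node. The 3 organs did not overlap, and mt-Nd3 was higher in liver than in lymph node (0.77 ± 0.11, adjusted p = 2.0e-06) and in spleen than in lymph node (0.58 ± 0.11, adjusted p = 0.00031), both under all 16 alternatives, while its difference between liver and spleen was not called (0.19, adjusted p = 0.22). mt-Nd2 (chrM:3914-4951) stood at 1067 and 1168 in the liver, 1193 and 1259.6 in the spleen and 923 and 901 in the lymph node, and was called in spleen over lymph node (0.43, adjusted p = 0.0097). mt-Nd6 (chrM:13552-14070), the single member on the other strand, had 50 to 160 UMIs per library and stood at 21.4 and 21.9, 24.7 and 32.8, and 17.4 and 13.8 CPM (0.88 ± 0.21 for spleen over lymph node, adjusted p = 0.0027). The calls of mt-Nd2 and mt-Nd6 were lost without spleen replicate 2 or lymph node replicate 2, and that of mt-Nd2 also without lymph node replicate 1.

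**Figure D4:**
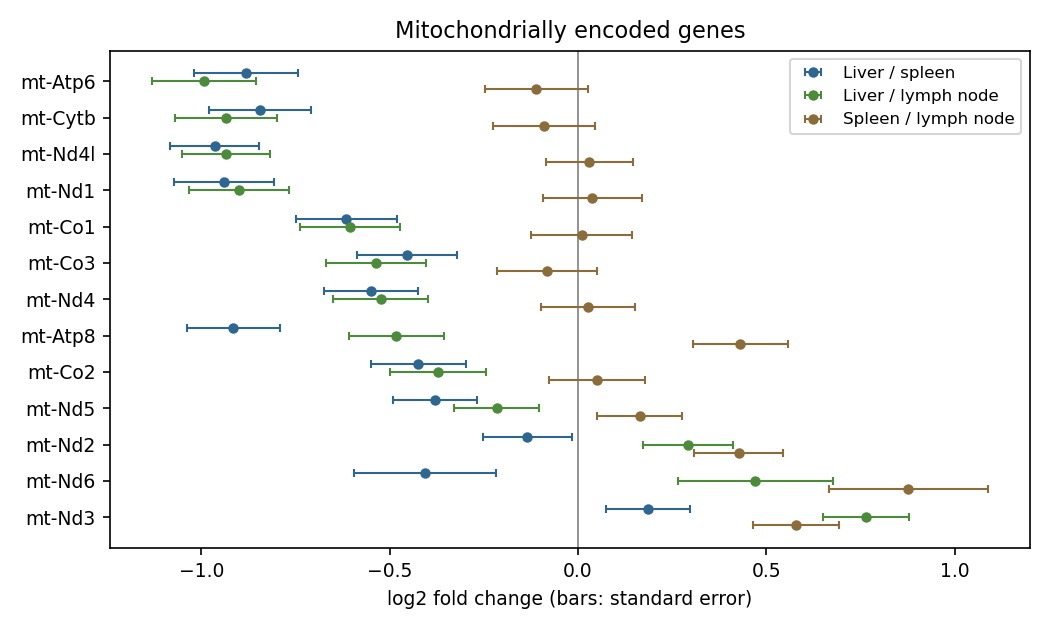
Log2 fold change of the 13 mitochondrially encoded genes in the 3 comparisons, with standard errors from edgeR, ordered by liver over lymph node. mt-Atp6, mt-Cytb, mt-Nd4l and mt-Nd1 lie near -0.9 in both liver comparisons, and mt-Nd3 lies at 0.19 and 0.77.

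The makeup of mitochondrial RNA shows the same contrast without reference to other genes. mt-Nd3 was 1.19% and 1.19% of mitochondrial UMIs in the liver, 0.687% and 0.634% in the spleen and 0.449% and 0.412% in the lymph node, and mt-Nd2 was 2.63% and 2.80%, 1.97% and 1.79%, and 1.42% and 1.30%. mt-Atp6 went the opposite way, from 23.6% and 24.3% in liver to 27.7% and 27.8% in spleen and 28.5% and 30.0% in the lymph node, and mt-Cytb went from 10.2% and 10.5% to 11.3% and 12.1% and to 11.9% and 12.4%. Shares of a whole cannot move independently, so these values show unequal change among the 13 genes and not that any of them was constant.

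Other genes of the pathway, listed by name, were counted in the same fits. For comparison, the share of all tested genes that was called was 25.9% for liver against spleen, 37.5% for liver against lymph node and 18.2% for spleen against lymph node. Of 35 assembly factors not named Nduf, 12 were lower in liver than in spleen (34.3% called), among them Cox20 (-0.56) and Cox11 (-0.71) for complex IV, Sdhaf1 (-0.61) and Sdhaf4 (-0.69) for complex II, and Timmdc1 (-0.61) for complex I. Against lymph node 9 were lower and 1 higher in liver (28.6%, below the share of all genes). In spleen 3 were higher and 1 lower than in lymph node (11.4%, also below it), the higher ones being Uqcc2 (0.60), Cmc2 (0.56) and Cox17 (0.41). Ttc19, a complex III assembly factor, had 34.4 and 38.1 CPM in the liver, 36.2 and 38.3 in the spleen and 71.6 and 74.2 in the lymph node, so that lymph node stood apart (-1.01 for liver over lymph node, adjusted p = 5.0e-07).

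Of 23 genes that copy, transcribe or process mitochondrial DNA and its RNA, edgeR called 6 lower in liver than in spleen. DESeq2 called 2 of the 23 there, where it called 14.1% of all genes. The shares called by edgeR (26.1%, 34.8% and 17.4% in the 3 comparisons, in the order above) were near those of all genes. Ssbp1, the single-stranded DNA binding protein of the mitochondrial replication fork, stood at 85.9 and 97.5 CPM in the liver, 156 and 181 in the spleen and 129.5 and 135 in the lymph node (-0.88 ± 0.12 against spleen, adjusted p = 2.1e-06). The others were Mterf1a (-0.89), Mterf1b (-1.07), Mterf2 (-0.70), Tefm (-0.72) and Fastkd2 (-0.75), of which Mterf1a and Mterf1b are near-identical copies whose reads may have been split. Tfam, which packages and transcribes mitochondrial DNA, did not pass the test in any comparison (71.7 and 67.0 in liver, 67.4 and 72.0 in spleen, 58.0 and 65.1 in lymph node), nor did the polymerase Polrmt. Of the 23 genes, 7 were lower and 1 higher in liver than in lymph node, with Polg2, the accessory subunit of the mitochondrial DNA polymerase, at -1.003. Slirp (0.54), Ssbp1 (0.35) and Mterf1a (0.59) were higher, and Polg2 (-0.83) lower, in spleen than in lymph node.

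Among 12 nuclear regulators, Pprc1, a coactivator of the PGC-1 family, was higher in liver (13.1 and 15.2 CPM, against 7.55 and 5.76 in spleen and 6.53 and 7.72 in the lymph node, 1.08 ± 0.27 over spleen, adjusted p = 0.0033). It was the 1 regulator of 11 tested called between liver and spleen (9.09%), while Nrf1 (0.10), Gabpa (-0.23) and Yy1 (0.02) were not called, and Ppargc1a had 0 UMIs over all libraries, at the same limit of 0.0746 CPM. Pprc1 (0.99), Hcfc1 (0.93), Gabpb2 (0.70) and Esrra (0.52) were higher, and Gabpb1 (-0.50) lower, in liver than in lymph node (45.5% called, where the share of all genes was 37.5%). DESeq2 called 2 of the 11 regulators there, and 25.1% of all genes. Of 9 other subunits and carriers, Usmg5, Atpif1, Etfa and Etfb were lower in liver than in spleen (-0.47, -0.46, -0.46 and -0.47, 44.4% called against 25.9% of all genes), and Atpif1 (-0.78), Etfa (-0.60) and Usmg5 (-0.44) were lower in liver than in lymph node. Cytochrome c (Cycs) was higher in liver (0.39) and in spleen (0.50) than in lymph node. The called share of the 9 was 44.4% for liver against lymph node (37.5% of all genes) and 11.1% for spleen against lymph node (18.2% of all genes). The 14 tricarboxylic acid cycle genes moved in both directions between liver and spleen, with Dlst (1.08), Cs (0.50) and Idh3b (0.47) higher in liver and Sucla2 (-0.71), Idh2 (-0.54) and Mdh2 (-0.39) lower (42.9% called against 25.9%). Against lymph node 4 were higher and 4 lower in liver (57.1% against 37.5%). DESeq2 called 3 of the 14 there, where it called 25.1% of all genes. Between spleen and lymph node edgeR called 0 of the 14, with 0 also at an unadjusted p below 0.05 and by DESeq2, where 18.2% of all genes were called. Of the regulators Hcfc1 alone (0.77, 9.09% called) was higher in spleen than in lymph node. No list was tested against the other genes.

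Cells were also grouped into clusters built without the 105 members, and clusters were named from markers alone, so that names can differ from those of the study. The 3 largest clusters followed the organs and were left unnamed. Cluster 0, led by Bcl2, Mmp9, Socs2 and Il2rb, held 2037 and 1811 liver cells and 48 and 26 spleen cells, cluster 1, led by Art2b, Slamf7, Ccl5 and Cd160, held 1738 and 1742 spleen cells, and cluster 2, led by Ccl1, Nrgn and Pdcd1 and with Nr4a1, Dusp1 and Eif2s3y among its leading genes, held 1448 and 1480 lymph node cells. Organ and cluster cannot be told apart for most of these cells, and smaller clusters were uneven too. The iNKT17-like cluster held 892 and 1083 lymph node cells among its 2150, and the NF-kB-like cluster 7 and 1 lymph node cells among its 607.

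Within each of 8 classes (clusters, or clusters sharing a name) with at least 20 cells in every liver and spleen library, both shares were lower in both liver libraries than in both spleen libraries. Spleen cells of cluster 0 had a mitochondrial share of 3.81% and 4.22%, against 2.78% and 2.85% for its liver cells, and liver cells of cluster 1 (39 and 120 cells) had 2.66% and 2.88%, against 3.98% and 4.59% for its spleen cells. In all 5 classes shared by liver and lymph node the mitochondrial share was also lower in both liver libraries, whereas the nuclear share was lower in 2, higher in 1 and overlapping in the others. These are counts over classes of the same libraries, which are not replicates, and carry no test.

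iNKT17-like cells, marked by Ccr6, Il23r and Il17re, had a higher mitochondrial share than the other cells of their library in all 6 libraries. It was 3.79% and 4.36% in liver (22 and 30 cells) against 2.78% and 2.83% in the other cells, 5.83% and 6.44% against 4.22% and 4.83% in spleen (70 and 53 cells), and 4.91% and 5.66% against 4.50% and 5.00% in lymph node (892 and 1083 cells). The ratio was 1.09 to 1.54, and 1.10 to 1.48 in the 4 libraries with at least 20 such cells of 1200 to 2500 UMIs. Their nuclear share was 0.951 to 1.03 times that of the other cells. The iNKT17-like cells had more UMIs than their library's median cell, with a median of 1692 to 5598.

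Cycling-like cells (50 to 109 per library) showed the reverse. Their nuclear share was 2.73% and 2.93% in the liver, 3.33% and 3.405% in the spleen and 3.11% and 3.24% in the lymph node, 1.12 to 1.22 times that of the other cells in all 6 libraries, and their mitochondrial share was 0.827 to 0.901 times. Among cells of over 2500 UMIs the ratios were 1.09 to 1.13 and 0.785 to 0.900, so the contrast was smaller for the nuclear set at that depth. NF-kB-like cells, with at least 20 cells in the liver and spleen libraries, also had a higher nuclear share (1.06 to 1.10 times) and a lower mitochondrial share (0.836 to 0.930 times). At 1200 to 2500 UMIs, with 2 libraries compared, these ratios were 1.03 to 1.08 and 0.918 to 0.924. Over 2500 UMIs, again with 2 libraries, they were 1.08 to 1.09 and 0.905 to 0.936. Cells resembling recent thymic emigrants (leading genes Ccr7, Klf2 and S1pr1, 97 to 652 cells per library) had a lower nuclear share in all 6 libraries (0.925 to 0.977 times), and a higher mitochondrial share in the 4 liver and spleen libraries but not in the lymph node libraries (4.65% and 5.16%, against 4.65% and 5.27% in the other cells). Among cells of over 2500 UMIs, the 1 lymph node library with at least 20 such cells (21) had 4.89% against 4.71%, so that the mitochondrial share was higher in all 5 libraries compared in that window, whereas at 1200 to 2500 UMIs both lymph node libraries were lower (4.50% and 5.10% against 4.67% and 5.46%). Most such cells of lymph node came from another cluster (78 and 76 cells, led by Dapl1) than those of liver and spleen.

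**Figure D5:**
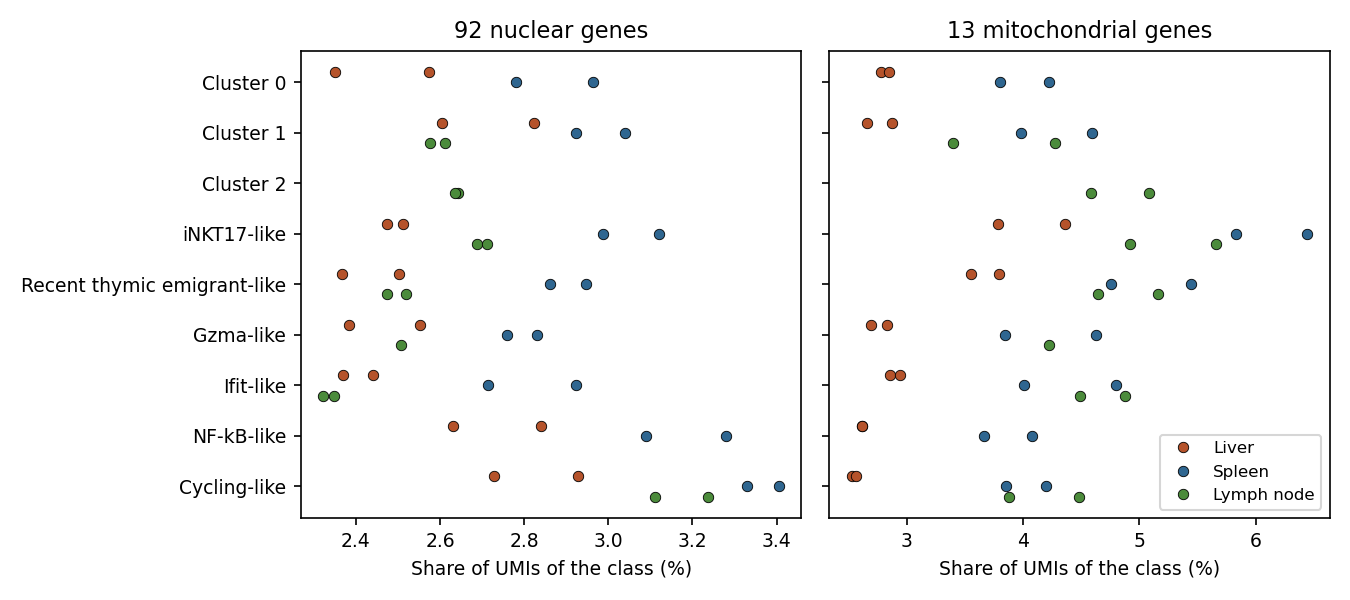
Share of UMIs (%) in the nuclear (left) and mitochondrial (right) genes for the cells of each cluster, 1 point per library with at least 20 such cells, colored by organ. The horizontal axes do not start at 0. Cycling-like cells have, within each library, the highest nuclear shares (2.73% to 3.405%), iNKT17-like cells have mitochondrial shares from 3.79% to 6.44%, and liver points lie left of the spleen points in every row that has both.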

How the data were processed

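Sorted iNKT cells of 3 organs were profiled with 10x Genomics Chromium 3′ v2 libraries. Per the labels and the study's methods, the authors used Cell Ranger 3.1.0 with mm10, and the deposited matrices hold raw UMI counts per gene and barcode, without normalization. The deposited gene and barcode lists hold other values (identifiers and symbols). The annotation version is not given in the sources used here, so locations came from GENCODE vM21. The study's methods describe libraries from sorted cells, whereas the label for the molecule says nuclear RNA, a difference that was not settled.

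Barcodes with 300 to 4000 genes and at most 15% mitochondrial UMIs were kept (55 removed, 45 of them over the mitochondrial limit), and doublets were not removed in the main setting. The members, gene lists and alternatives were chosen with earlier results of these data known. Counts were summed per library without 110 ribosomal and haemoglobin genes and tested with edgeR 4.0.16 in R 4.3.3 (filterByExpr, TMM, robust quasi-likelihood fit, 6 libraries, organ as the only term, no pooled replicates), with Benjamini-Hochberg adjustment over all 10251 genes. DESeq2 1.42.0 was an alternative. The code was checked on simulated counts. The text names all mt- genes, up to 10 called nuclear genes per direction and comparison with the largest fold, tissue isoforms and the member with the most UMIs of each complex, and other members are named after their values were seen. Clusters came from scanpy 1.11.5 and leidenalg 0.10.2 (3000 variable genes, 20 components, 20 neighbours, resolution 0.5) without the members. UMIs of intronic, antisense or pseudogene origin could not be told apart from those of the genes, and intervals from counts cover counting error only. The total per library sets the precision, with 4758138 UMIs in the shallowest. Some items are not reported here.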

Additional observations from a re-analysis of the deposited data

How the results depend on the processing

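Among the called members that were followed through the alternatives, no fold change changed sign under any of the 16 run. Counts of calls did change. With nuclear genes higher in liver than in spleen at 2, leaving out a library gave 0 to 2, DESeq2 1, no filter on low counts 4 and cells of 1200 to 2500 UMIs 0. Nuclear genes lower in liver than in spleen (38) ranged from 4 to 37 when a library was left out, and the ranges that follow in this paragraph are likewise over the left-out libraries alone. Nuclear genes higher in liver than in lymph node (9) ranged from 2 to 9, with 4 in cells of 1200 to 2500 UMIs and 5 in the main cluster of each organ, an alternative chosen after seeing the data. Nuclear genes lower in liver than in lymph node (10) ranged from 3 to 12, with 6 by DESeq2. Nuclear genes higher in spleen than in lymph node (14) ranged from 0 to 18, with 9 by DESeq2. Mitochondrial genes lower in liver than in spleen (10) ranged from 5 to 10, and lower in liver than in lymph node (9) from 7 to 9. Those higher in spleen than in lymph node (4) ranged from 1 to 4, and those higher in liver than in lymph node (1) from 1 to 2, with also 2 by DESeq2, with no filter, in cells of 1200 to 2500 UMIs and in the main clusters. A lone remaining library was assumed to vary like the other organs. The cause of these changes was not tested, beyond the smaller number of libraries.

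The labels do not say whether libraries with the same replicate number share mice. Correlations of replicate deviations between organs were weakly positive (0.0985 for liver and spleen, 0.0832 for liver and lymph node, 0.0752 for spleen and lymph node). They cannot show whether the samples are paired. With a replicate block, 4 nuclear genes were higher in liver than in spleen, 23 higher in spleen than in lymph node, and 2 mitochondrial genes higher in liver than in lymph node, and over all genes 3069, 4172 and 2140 were called against 2658, 3848 and 1869 without it. Of the genes for mitochondrial DNA expression, DESeq2 called 2, 5 and 1 in the same order, against 6, 8 and 4 by edgeR, and of the assembly factors not named Nduf 7, 8 and 4, against 12, 10 and 4. It called 2 regulators between liver and lymph node, against 5, and 3 tricarboxylic acid cycle genes, against 8. Over all genes DESeq2 called 1446, 2577 and 1137, and cells of 1200 to 2500 UMIs gave 1456, 2470 and 1715.

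Shares without ribosomal genes in the total were 3.79%, 4.15% and 3.59% (nuclear) and 4.23%, 6.37% and 6.63% (mitochondrial) in liver, spleen and lymph node. Without mitochondrial genes in the total, the nuclear share was 3.12% in spleen and 2.82% in lymph node. In cells of 1200 to 2500 UMIs it was 2.36% in liver and 2.60% in lymph node, and the mitochondrial share of liver was 2.90%. In the main clusters the nuclear share of lymph node was 2.64%. With a library left out, the nuclear share was 2.42% to 2.64%, 2.92% to 3.04% and 2.67% to 2.69%, and the mitochondrial share 2.79% to 2.85%, 4.27% to 4.87% and 4.65% to 5.26%. Fits on iNKT1-like cells alone could not be run, since no cluster was named so. Genes near 100 UMIs per library, such as Ndufaf6 and mt-Nd6, rested on few counts, with edgeR standard errors of 0.21 for both between spleen and lymph node.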
